A study of Mus musculus with 4 samples.

Results

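The genes described here are the 10 members of the TGF-beta pathway and its matricellular partners chosen by symbol from the 32285 genes that the files list. They are the ligands Tgfb1, Tgfb2 and Tgfb3, the receptors Tgfbr1 and Tgfbr2, the latency binders Ltbp1 and Ltbp2, the CCN genes Ccn1 and Ccn2, and the thrombospondin gene Thbs1. Transcripts were counted with Visium, an array whose barcoded spots each collect polyadenylated RNA from the tissue lying on them, usually from several cells. The kidneys came from male mice of the C57BL/6J background, were frozen fresh and were cut at 10 µm. The 2 Uox_KO sections came from mice in which exons 2 to 4 of Uox had been deleted. The 2 Control sections came from wild-type males, and no agent was given to either group as far as the labels say. Uox encodes urate oxidase, which clears uric acid in rodents, and its loss serves as a model of hyperuricemia. The labels give neither the age of the mice nor a shared litter or run.

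TGF-beta is secreted in a latent form, in which the ligand stays wrapped in its own propeptide. Latent TGF-beta binding proteins tether that complex to the microfibrils of the matrix, and integrins, proteases or thrombospondin-1 release the active ligand. The active ligand brings together its type II receptor, TGFBR2, and its type I receptor, TGFBR1, which phosphorylates SMAD proteins that then enter the nucleus. CCN1 and CCN2 are secreted matricellular proteins, meaning proteins that lie in the matrix and alter how cells respond to it. Their genes are known targets of SMADs and of YAP with TEAD, the DNA-binding partners of YAP. In the kidney the pathway is best known for its part in fibrosis and in the response of tubules to damage. LTBP2 differs from the other latency binders in that it binds fibrillin without forming the covalent link to latent TGF-beta.

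Uox_KO sections had 2650 and 2590 spots, against 2528 and 3362 spots in Control. Their captured RNA molecules, counted by unique molecular identifiers (UMIs), came to 53897511 and 57230517 in Uox_KO and to 93524222 and 107962997 in Control. The median spot held 16674 and 19599.5 UMIs in Uox_KO and 37386 and 32038.5 UMIs in Control. Sections are the replicates, so n = 2 per genotype, and the p-values cover no other source of spread. Those of edgeR do not rest on the scatter of each gene alone, since the fit also draws on the spread of all genes together. Uox had 0 UMIs in all 4 sections, where 3 counts are 0.0557 and 0.0524 CPM of total UMIs in Uox_KO and 0.0321 and 0.0278 in Control, so the transcript checks no label in this organ. The tissue label held: the 20 proximal tubule markers, 20 distal markers and 15 glomerular markers were all detected in every section. The sections also differed in makeup. The proximal markers summed to 53128 and 47666 CPM of total UMIs in Uox_KO and to 100462 and 97252 in Control. The distal markers summed to 6454 and 6851 in Uox_KO and to 10873 and 12183 in Control, and the glomerular markers to 258 and 282 in Uox_KO and to 212 and 238 in Control. Markers of fat and urothelium summed to 2442 and 4238 CPM of total UMIs in Uox_KO and to 111 and 150 in Control, where 4 and 2 of the 20 genes had 0 UMIs. Malat1, a nuclear RNA, took 0.0308% and 0.0275% of UMIs in Uox_KO and 0.0127% and 0.00942% in Control, and mitochondrial genes took 14.3% and 17.3% in Uox_KO and 13.0% and 14.0% in Control. The part of makeup and RNA quality in the results was not tested. Levels are given as CPM, the UMIs of a gene scaled to a common library size, after scaling for composition (TMM) unless total UMIs are named. Spots were never used as replicates.

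All 10 genes were higher in Uox_KO than in Control, but by sizes that ranged from 1.41-fold for Ltbp1 to 486-fold for Ltbp2. The ligands stood about as far apart between the genotypes as each other, the receptors differed by less than 1.9-fold, and within the latency binders and within the CCN genes one member moved far and the other little. By the quasi-likelihood test of edgeR, adjusted after Benjamini and Hochberg over 16369 genes, all 10 were called at an adjusted p of 0.05, and for none did the Uox_KO and Control sections overlap. Of all genes tested, 67.1% were called in this comparison, 34.6% as higher and 32.5% as lower in Uox_KO, so being called is common here. Of all genes, 85.7% did not overlap between the genotypes, 43.1% with Uox_KO higher. The median log2 fold change was 2.23 over the 10 genes and 0.00 over all genes. With total UMIs in place of TMM, all 10 were still called higher and their median was 2.50, while the median of all genes moved to 0.27. That scaling turned the split of all calls from 51.5% higher under TMM to 73.6% higher. Since a spot or a section mixes cell types, more cells of a type and more RNA per cell cannot be told apart in these values.

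**Figure D1:**
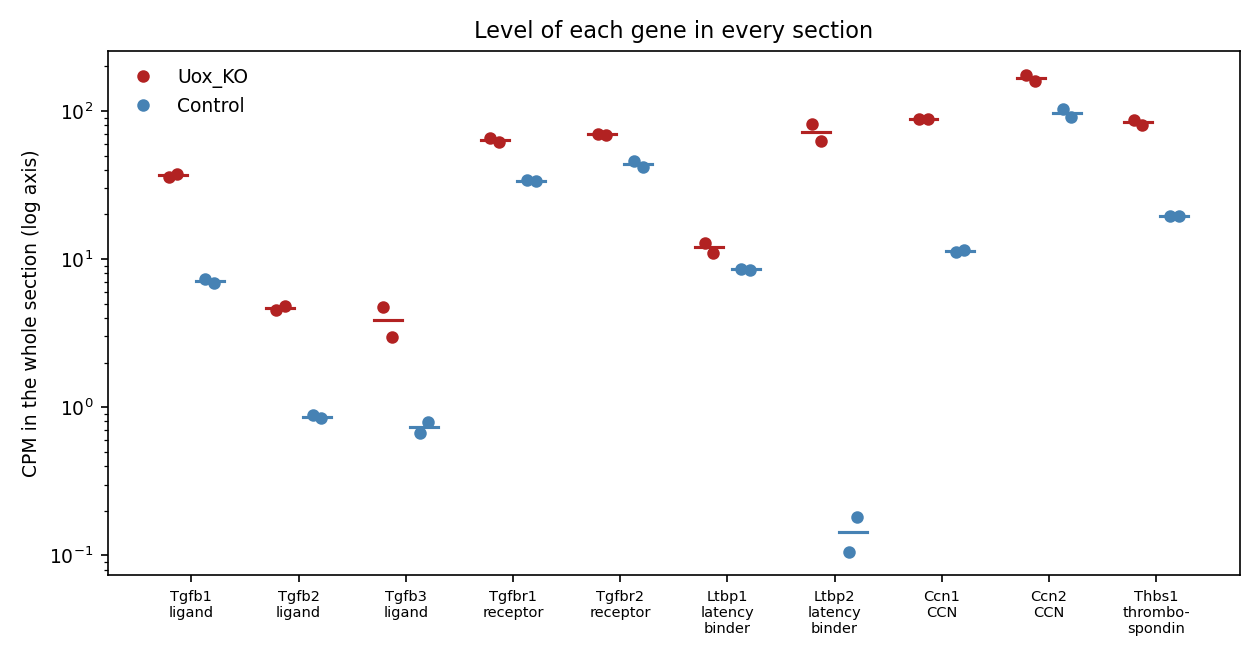
Level of each gene in CPM on a log axis, with 1 point per section, Uox_KO in red left of Control in blue, and a bar at the mean of each genotype (n = 2 sections). The genotypes do not overlap for any gene, and the gap is widest for Ltbp2 (81.9 and 62.3 CPM in Uox_KO, 0.106 and 0.182 in Control) and narrowest for Ltbp1.

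Because the contrast within the latency binders and within the CCN genes carries much of what follows, bases upstream of Ltbp2, Ltbp1 and Ccn1 are shown, from RefSeq on GRCm38.p6. Of the 10 genes, 7 have an entry in the promoter table used, and each window searched is the 250 bases before an annotated transcript start. The last 67 bases of the Ltbp2 window and the last 49 of the Ltbp1 window lie within the outer bounds of the gene and are not shown. Capitals mark every match, on either strand, to TATAAA (the TATA box), GGAATG (the core bound by TEAD), CAGAC (a SMAD-binding element) or TGANTCA (AP-1), or to the CArG box of serum response factor. No 2 marked matches overlap.
Ltbp2, chr12:84876559-84876741, minus strand: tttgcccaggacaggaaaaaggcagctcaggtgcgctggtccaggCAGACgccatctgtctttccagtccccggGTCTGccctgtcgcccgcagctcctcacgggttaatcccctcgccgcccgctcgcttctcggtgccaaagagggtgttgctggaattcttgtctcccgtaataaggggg
Ltbp1, chr17:75005279-75005479, plus strand, the upstream one of its listed starts: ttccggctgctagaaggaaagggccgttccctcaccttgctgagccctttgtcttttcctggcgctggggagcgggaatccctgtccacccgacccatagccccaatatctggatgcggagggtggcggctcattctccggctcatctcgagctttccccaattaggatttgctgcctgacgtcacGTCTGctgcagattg
Ccn1, chr3:145649986-145650235, minus strand: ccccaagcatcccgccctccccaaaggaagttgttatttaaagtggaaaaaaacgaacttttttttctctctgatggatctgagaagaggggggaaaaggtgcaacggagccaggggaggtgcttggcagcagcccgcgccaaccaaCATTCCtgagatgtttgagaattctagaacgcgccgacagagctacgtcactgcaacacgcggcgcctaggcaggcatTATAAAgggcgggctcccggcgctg

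In the Ccn1 window a TATA box began at -25 and a TEAD core at -103, counted from the annotated transcript start. The Ltbp2 window had CAGAC at -205 and -176, and the Ltbp1 window shown had a match at -64. A further Ltbp1 window, at a start inside the gene and not shown, had matches to CAGAC at -148 and -97. Over all 32851 windows of this length, 12.4% held TATAAA, 12.6% GGAATG, 42.2% CAGAC, 6.75% TGANTCA and 1.47% a CArG box. A match describes letters and is no measured binding site, and none of the 3 windows shown held TGANTCA or a CArG box.

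Tgfb1 (chromosome 7, 25687002 to 25705077), whose product is the ligand most tied to fibrosis and immune control, had 36.0 and 37.4 CPM in Uox_KO and 7.34 and 6.85 CPM in Control. It was 5.18-fold higher in Uox_KO (log2 fold change 2.37 ± 0.07 SE, edgeR adjusted p 1.5e-06). Tgfb2 (chromosome 1, 186622787 to 186709697) had 4.56 and 4.85 CPM in Uox_KO and 0.882 and 0.839 CPM in Control, a 5.46-fold rise (edgeR adjusted p 1.5e-05). Both Uox_KO sections lay close together for these ligands. Tgfb3 (chromosome 12, 86056743 to 86079041) spread more, with 4.72 and 2.99 CPM in Uox_KO and 0.670 and 0.799 CPM in Control, a 5.22-fold rise (log2 fold change 2.38 ± 0.26 SE, edgeR adjusted p 2.3e-04). Tgfb2 and Tgfb3 rest on 274 and 299 and on 284 and 184 UMIs in Uox_KO, and on 75 and 83 and on 57 and 79 UMIs in Control.

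The split among the 3 ligands differed little between the genotypes. Of all ligand UMIs, Tgfb1 took 79.5% and 82.7% in Uox_KO and 82.5% and 80.7% in Control. Tgfb2 took 10.1% and 10.7% in Uox_KO and 9.92% and 9.89% in Control. Tgfb3 took 10.4% and 6.59% in Uox_KO and 7.54% and 9.42% in Control. The ratio of Tgfb2 to Tgfb1 UMIs was 0.1267 and 0.1296 in Uox_KO and 0.1202 and 0.1226 in Control, which do not overlap, a log2 difference of 0.078 with SDs between sections of 0.023 in Uox_KO and 0.020 in Control. The log2 ratio of Tgfb3 to Tgfb1 differed by -0.013, with SDs of 0.51 in Uox_KO and 0.25 in Control. The exact permutation test of 2 against 2 sections, two-sided, gave p = 0.333 for Tgfb2 to Tgfb1, the smallest it allows, and p = 1.0 for Tgfb3 to Tgfb1. In all, 6 such ratios were tested, and none could pass a threshold of 0.05.

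The receptors rose less than the ligands. Tgfbr1 (chromosome 4, 47353222 to 47414926), the type I receptor kinase, had 65.3 and 62.0 CPM in Uox_KO and 34.1 and 33.5 CPM in Control, 1.88-fold higher in Uox_KO (edgeR adjusted p 2.1e-05). Tgfbr2 (chromosome 9, 116087695 to 116175363), which binds the ligand first, had 70.4 and 69.0 CPM in Uox_KO and 45.8 and 42.1 CPM in Control, 1.59-fold higher (edgeR adjusted p 1.3e-04). The ratio of Tgfbr2 to Tgfbr1 UMIs was 1.08 and 1.11 in Uox_KO and 1.34 and 1.26 in Control, a log2 difference of -0.25 with no overlap (exact permutation p = 0.333).

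The latency binders set the extremes of the group. Ltbp2 (chromosome 12, 84783212 to 84876558) had 4925 and 3836 UMIs in Uox_KO and 9 and 18 UMIs in Control, which is 81.9 and 62.3 CPM against 0.106 and 0.182 CPM. It was 486-fold higher in Uox_KO (log2 fold change 8.92, 95% interval 8.36 to 9.49, edgeR adjusted p 1.3e-06) and ranked 24 by fold change among all 16369 genes tested. The transcript was thus close to absent from the Control sections, and it passed the filter on low counts only through Uox_KO. Ltbp1 (chromosome 17, 75005480 to 75392512), which binds latent TGF-beta covalently, had 12.93 and 11.02 CPM in Uox_KO and 8.59 and 8.42 CPM in Control, a 1.41-fold rise (log2 fold change 0.49, 95% interval 0.27 to 0.72, edgeR adjusted p 0.00334). Without the spots of fat and urothelium and of a stroma-rich cluster described below, the log2 fold change of Ltbp1 was -0.058 (edgeR adjusted p 0.606), and the other 9 genes stayed called.

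The ratio of Ltbp2 to Ltbp1 UMIs was 6.34 and 5.65 in Uox_KO and 0.0123 and 0.0216 in Control, a log2 difference of 8.52 (exact permutation p = 0.333). Among the UMIs of Ltbp1 to Ltbp4 together, Ltbp2 made up 40.5% and 34.6% in Uox_KO and 0.155% and 0.247% in Control. Ltbp4, whose product serves elastic fibre assembly, made up 25.1% and 29.9% in Uox_KO and 54.1% and 51.9% in Control. Ltbp1 took 6.39% and 6.12% in Uox_KO and 12.6% and 11.4% in Control. These shares fell although the CPM of Ltbp1 and Ltbp4 were higher in Uox_KO.

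**Figure D2:**
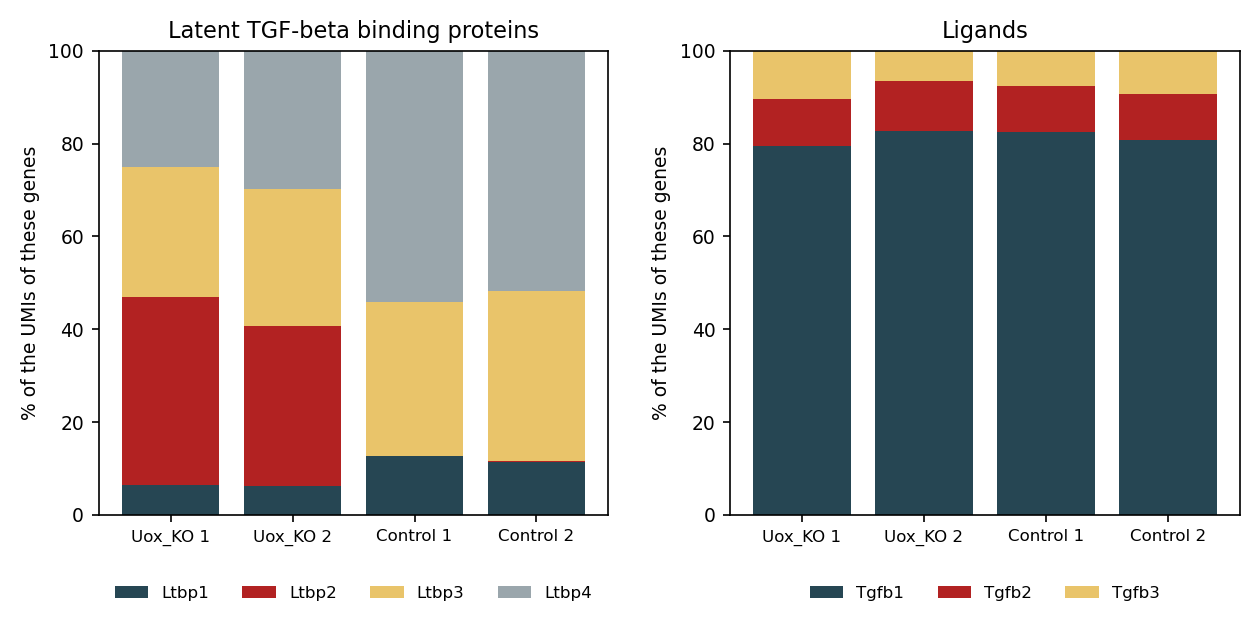
Share of each gene, in % of UMIs, among the 4 latent TGF-beta binding protein genes (left) and among the 3 ligands (right), with 1 bar per section. Ltbp2, in red on the left, fills 40.5% and 34.6% of the Uox_KO bars and is too small to see in the Control bars, while Tgfb1 fills 79.5% to 82.7% of the ligand bars in all 4 sections.

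The CCN genes parted in the same way. Ccn1 (chromosome 3, 145646971 to 145649985), an immediate-early gene whose product binds integrins, had 88.5 and 88.2 CPM in Uox_KO and 11.1 and 11.5 CPM in Control. It was 7.81-fold higher in Uox_KO (log2 fold change 2.97 ± 0.06 SE, edgeR adjusted p 1.1e-06). Ccn2 (chromosome 10, 24595442 to 24598683), long known as connective tissue growth factor, had 176 and 160 CPM in Uox_KO and 103 and 91.7 CPM in Control, 1.72-fold higher (edgeR adjusted p 2.2e-04). The ratio of Ccn2 to Ccn1 UMIs was 1.99 and 1.81 in Uox_KO against 9.35 and 7.95 in Control. This log2 difference of -2.18 is many times the SD between sections, 0.09 in Uox_KO and 0.17 in Control (exact permutation p = 0.333). Ccn1 is the gene whose TATA box and TEAD core are shown above, and Ccn2 has no entry in that promoter table, so their promoters were not compared. The part of these matches in the values was not tested.

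Thbs1 (chromosome 2, 118111876 to 118127133), whose product thrombospondin-1 activates latent TGF-beta, had 87.2 and 80.0 CPM in Uox_KO and 19.6 and 19.6 CPM in Control, 4.27-fold higher in Uox_KO (log2 fold change 2.09 ± 0.07 SE, edgeR adjusted p 2.1e-06). Platelets carry thrombospondin-1 and TGF-beta1, and the 6 platelet markers summed to 23.0 and 19.6 CPM of total UMIs in Uox_KO and to 9.06 and 9.03 CPM in Control, with 2 and 1 of them at 0 in Uox_KO. The part of platelets in the Thbs1 and Tgfb1 values was not tested. The ratio of Ccn2 to Thbs1 was 2.02 and 2.00 in Uox_KO and 5.28 and 4.68 in Control (exact permutation p = 0.333).

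Spot depth differed between the genotypes, so the share of spots with a transcript was compared after drawing 5000 UMIs from each spot. Shallower spots were left out, 293 and 152 in Uox_KO and 6 and 4 in Control. Ltbp2 was then present in 31.7% and 25.9% of Uox_KO spots, against 1 of 2522 and 5 of 3358 Control spots (0.0397% and 0.149%, with exact 95% intervals of 0.00100% to 0.221% and 0.0484% to 0.347%). Before thinning it was present in 54.0% ± 5.39 of Uox_KO spots and 0.381% ± 0.0917 of Control spots (SD, n = 2 each). The largest count in 1 spot was 29 and 59 UMIs in Uox_KO and 2 and 2 UMIs in Control.

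At that depth Ccn1 was present in 32.6% and 31.7% of Uox_KO spots and 4.84% and 4.97% of Control spots. Thbs1 was present in 32.7% and 32.4% of Uox_KO spots and 8.13% and 9.44% of Control spots, and Tgfb1 in 20.5% and 21.5% of Uox_KO spots and 3.85% and 3.34% of Control spots. Ccn2 was present in 50.2% and 48.2% of Uox_KO spots and already in 36.6% and 33.3% of Control spots. Ltbp1 was present in 8.19% and 7.71% of Uox_KO spots and 3.45% and 4.11% of Control spots. The genotypes did not overlap for any of the 10 genes (exact permutation p = 0.333 each, the smallest possible). At this depth 80.0% of all genes tested did not overlap, 56.9% with Uox_KO higher. Without thinning the difference, Uox_KO minus Control, changed sign for 3 genes, to -3.52 percentage points for Tgfbr2, -1.76 for Ltbp1 and -7.40 for Ccn2.

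**Figure D3:**
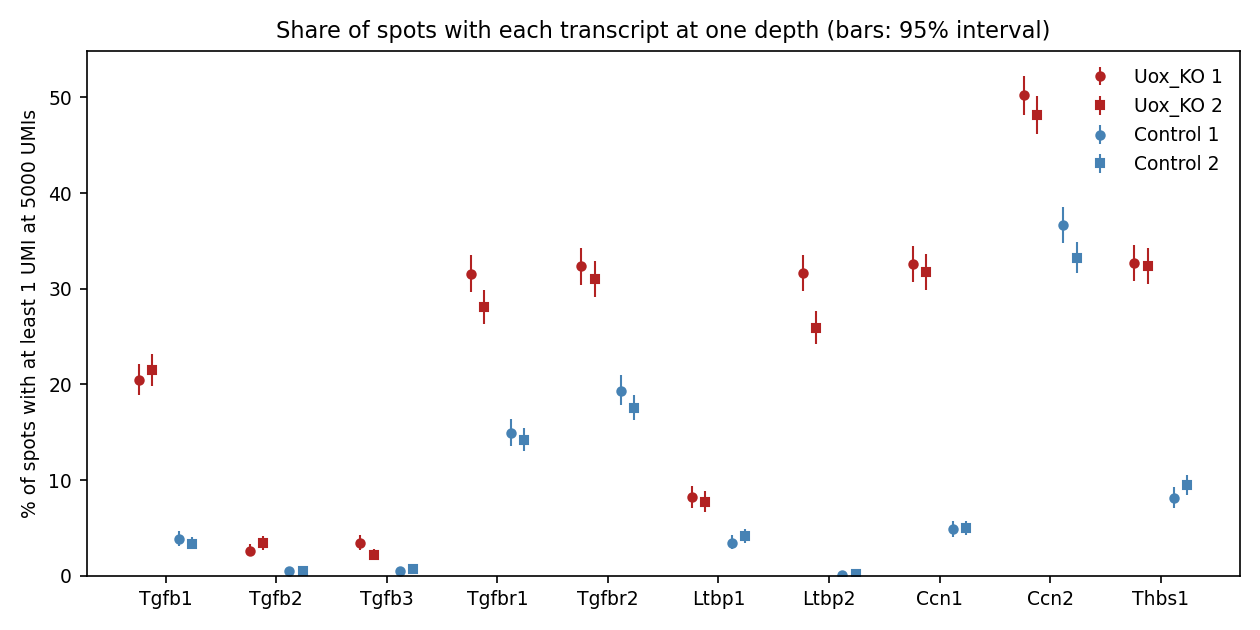
Share of spots, in %, with at least 1 UMI of each gene after each spot was thinned to 5000 UMIs, with 1 point per section and exact 95% intervals that cover counting error only. The red Uox_KO points lie above the blue Control points for all 10 genes, with Ltbp2 at or below 0.149% in Control.

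Marker lists of other kinds of cell also differed between the genotypes. The 10 markers of collagen-producing stroma summed to 1386 and 1062 CPM of total UMIs in Uox_KO and to 106 and 91.3 in Control, and the 12 macrophage markers to 1504 and 1204 in Uox_KO and to 99.5 and 91.5 in Control. The 20 markers of tubule injury summed to 12092 and 11079 CPM of total UMIs in Uox_KO and to 1247 and 1416 CPM in Control. The 8 smooth muscle and pericyte markers summed to 485 and 317 CPM of total UMIs in Uox_KO and to 122 and 134 CPM in Control. None of these 4 lists had a marker at 0 in any section, and every gene of the 4 was called higher in Uox_KO. The 10 markers of T and NK cells summed to 39.3 and 34.4 CPM of total UMIs in Uox_KO and to 6.01 and 5.89 in Control, with 9 called higher and Gzma not called. Of 12 inner medulla markers 8 were called higher, and the list summed to 1015 and 793 CPM of total UMIs in Uox_KO and to 603 and 640 in Control. Of the 20 proximal markers 18 were called lower and none higher, and of the 20 distal markers 15 were called lower and 1 higher. Among the 15 glomerular markers 9 were called lower and 4 higher. Of the 9 endothelium markers 5 were called lower and 1 higher. That list summed to 279 and 292 CPM of total UMIs in Uox_KO and to 317 and 327 in Control. The 5 red blood cell markers were all called lower and summed to 281 and 792 CPM of total UMIs in Uox_KO and to 5345 and 5024 in Control. The part of these cell types in the results was not tested, but the spots show where each gene lay relative to some of their markers.

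Spots were therefore ranked within each section by the share of their UMIs in the collagen-stroma markers and split into 5 equal bins. In Uox_KO, Ccn2 had 46.2 and 48.2 CPM of total UMIs in the lowest bin and 560 and 549 in the highest, while in Control it had 55.3 and 43.9 in the lowest bin and 195 and 180 in the highest. In the spots poorest in stroma markers the Uox_KO and Control values of Ccn2 thus overlapped on the scale of total UMIs. That scale leaves out the TMM factors of the whole sections, 1.12 and 1.08 in Uox_KO and 0.909 and 0.916 in Control, which would lower the Uox_KO values relative to Control. Ltbp1 behaved alike, with 3.94 and 4.76 CPM in the lowest bin and 44.2 and 40.5 in the highest in Uox_KO, and 6.02 and 5.36 in the lowest and 13.3 and 13.4 in the highest in Control. For Ltbp1, both Uox_KO values of the lowest bin lay below both Control values.

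Ccn1, Thbs1, Tgfb1 and Ltbp2 were higher in Uox_KO in every bin. Ccn1 had 48.1 and 41.9 CPM in the lowest bin of Uox_KO and 9.16 and 9.66 in that of Control, and in the highest bin it had 146 and 191 in Uox_KO and 12.6 and 13.8 in Control. Thbs1 had 28.8 and 37.5 in the lowest bin of Uox_KO and 11.6 and 13.2 in that of Control, and in the highest bin 296 and 242 in Uox_KO and 29.9 and 29.3 in Control. Ltbp2 had 21.3 and 12.8 CPM in the lowest bin of Uox_KO and 245 and 231 in the highest. A bin is set within its section, so the same rank is not the same amount of stroma. The markers took 0.0254% and 0.0172% of the UMIs in the lowest bin of Uox_KO, close to the 0.0301% and 0.0272% of the highest bin of Control. The median spot held 30643.5 and 31628.5 UMIs in the lowest bin and 9765 and 10329 UMIs in the highest in Uox_KO, and 39162.5 and 37365 UMIs in the lowest and 27677 and 24795.5 UMIs in the highest in Control.

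**Figure D4:**
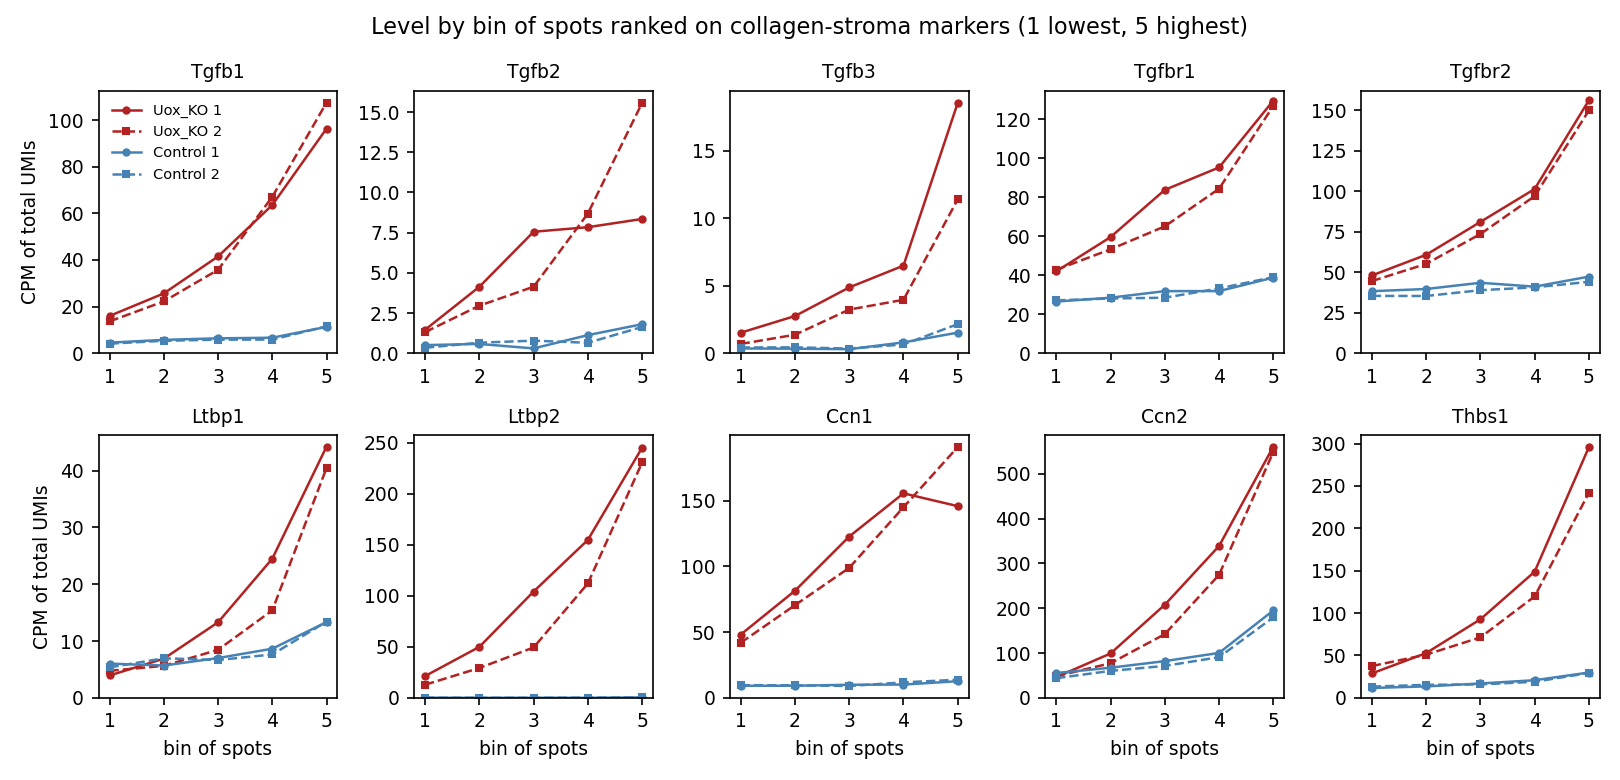
CPM of total UMIs of each gene in 5 bins of the spots, ranked within a section by collagen-stroma markers from 1 (lowest) to 5 (highest), with 1 line per section, Uox_KO in red and Control in blue. The Ccn2 lines of the genotypes meet at the left and part to the right. For Ltbp1 the Uox_KO lines start below those of Control and end above them. The lines of Ccn1, Thbs1, Tgfb1 and Ltbp2 are apart from bin 1 on.

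Spots were also ranked by tubule injury markers, where the highest bin held 24.5% and 24.2% of all UMIs in Uox_KO and 15.4% and 16.9% in Control. Ccn1 had 34.2 and 25.4 CPM of total UMIs in the lowest bin and 178 and 191 in the highest in Uox_KO, against 10.77 and 9.28 in the lowest and 12.1 and 11.7 in the highest in Control. Ltbp2 had 22.7 and 16.9 CPM in the lowest bin and 159 and 134 in the highest in Uox_KO. Thbs1 was higher in the highest bin in both genotypes, with 18.3 and 18.8 CPM in the lowest bin and 172 and 162 in the highest in Uox_KO, and 7.18 and 5.93 in the lowest and 43.1 and 39.9 in the highest in Control. In Control, 28.3% and 27.7% of the Thbs1 UMIs lay in cluster 6, a distal tubule-like cluster described below, at 46.6 and 40.3 CPM of total UMIs. The leading genes of that cluster include Clu, Lcn2 and Krt18. The part of this tubule segment in the Control ranking by injury markers was not tested. Tgfbr2 had 46.4 and 50.4 CPM in the lowest bin and 104 and 101 in the highest in Uox_KO, against 41.2 and 39.8 in the lowest and 42.9 and 36.2 in the highest in Control. Tgfbr2 thus rose with the injury markers in Uox_KO and was nearly even in Control over their lower range. The markers took 0.253% and 0.213% of the UMIs in the lowest bin of Uox_KO and 2.85% and 2.76% in the highest. In Control they took 0.0485% and 0.0505% in the lowest bin and 0.323% and 0.353% in the highest. The bins of the 2 genotypes therefore share little of one range. These ranks are descriptions, and no test was made on spots.

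To compare more similar tissue, spots were clustered without the 10 genes and without the pathway lists, and clusters were named from markers. The proximal tubule-like region held 43 and 56 spots in Uox_KO and 594 and 761 in Control, and other Uox_KO spots fell in clusters that no class claimed. It was 1 cluster, led by Slc5a2 with haemoglobin genes among its leading ones. The distal tubule-like region held 298 and 392 spots in Uox_KO and 1123 and 1523 in Control, with most Uox_KO spots in cluster 10 and most Control spots in clusters 4, 5 and 6. Cluster 10 had 154 and 232 spots in Uox_KO and 0 and 2 in Control. The distal region is thus a different mix of clusters in the 2 genotypes, and the part of that mix in its values was not tested. The glomerular-like region held 124 and 162 spots in Uox_KO and 174 and 277 in Control, in cluster 7. The fat and urothelium region had 6 and 19 spots in Control and was not tested.

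All 10 genes were called higher in Uox_KO in the proximal region, where 14.3% of 12880 genes were called higher, 13.2% lower and 27.4% in either direction. Of these, Tgfb2, Tgfb3 and Ltbp2 passed the filter on low counts there only through Uox_KO, which fixed their direction. Leaving out single sections kept 8 of the 10 called without Uox_KO section 1, 5 without Uox_KO section 2 and 7 without either Control section, and Tgfb2 and Tgfb3 rest there on 2 and 2 and on 2 and 3 UMIs in Uox_KO. In the glomerular region all 10 were again called higher, where 27.8% of 12312 genes were called higher, 27.6% lower and 55.5% either way, and the largest of their edgeR adjusted p-values was 3.9e-06. In that region the edgeR fit took the spread of each gene wholly from all genes together, so its p-values do not hold the scatter of a single gene. Tgfb2, Tgfb3 and Ltbp2 again passed the filter there only through Uox_KO. In the distal region 9 of 10 were called higher, where 27.9% of 14731 genes were called higher, 28.6% lower and 56.5% either way. The exception was Ltbp1, with 9.25 and 8.06 CPM in Uox_KO and 9.20 and 9.80 CPM in Control (log2 fold change -0.14, 95% interval -0.47 to 0.18, edgeR adjusted p 0.443). Single distal clusters, which were not tested, went both ways for Ltbp1. Cluster 6 had 20.7 and 19.0 CPM in Uox_KO and 13.5 and 15.2 in Control. Cluster 4 had 5.16 and 5.51 CPM in Uox_KO, on 4 and 5 UMIs, and 7.80 and 9.27 in Control, and in cluster 5 the genotypes overlapped.

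Ltbp2 had few UMIs in Control in each of the 3 tested regions and was present in each in Uox_KO. In each region Ltbp2 passed the filter on low counts only through Uox_KO. It had 23 and 25 UMIs in Uox_KO and 3 and 2 in Control in the proximal region, 460 and 314 in Uox_KO and 1 and 5 in Control in the distal region, and 105 and 170 in Uox_KO and 2 and 3 in Control in the glomerular region. In the untested fat and urothelium cluster it had 132 and 170 UMIs in Uox_KO, 34.1 and 32.1 CPM of total UMIs, and 0 and 4 UMIs in Control, where the 4 UMIs in 19 spots are 11.7 CPM. Ccn1 rose 5.24-fold to 7.47-fold in the 3 regions. It had 80.6 and 74.7 CPM in Uox_KO and 10.0 and 10.7 CPM in Control in the proximal region (7.47-fold), and 62.4 and 60.5 CPM in Uox_KO and 11.8 and 11.7 CPM in Control in the distal region (5.24-fold). In the glomerular region it had 99.7 and 127 CPM in Uox_KO and 16.3 and 21.8 CPM in Control (5.91-fold).

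Among the 3 regions, Ccn2 and Ltbp1 differed most between genotypes in the glomerular region, which holds the podocytes known to express Ccn2. Ccn2 had 725 and 846 CPM there in Uox_KO and 384 and 323 CPM in Control, 2.24-fold higher (edgeR adjusted p 3.7e-37). The glomerular p-values of Ccn2 and Ltbp1 rest on the spread of all genes together and do not hold the scatter of these genes between sections. In the distal region Ccn2 had 140 and 110 CPM in Uox_KO and 106 and 93.9 CPM in Control, 1.24-fold higher (edgeR adjusted p 0.0296). That distal call was lost with DESeq2 (adjusted p 0.0558), without Uox_KO section 1 (edgeR adjusted p 0.273) and without Control section 2 (edgeR adjusted p 0.196). In distal cluster 6 alone, which was not tested, Ccn2 had 183 and 223 CPM in Uox_KO and 135 and 111 in Control. Distal clusters 4 and 5 also had higher Ccn2 values in both Uox_KO sections. Ltbp1 had 51.2 and 48.2 CPM in Uox_KO and 18.5 and 16.0 CPM in Control in the glomerular region, 2.89-fold higher (edgeR adjusted p 4.2e-15). In the proximal region both had few UMIs in Uox_KO, 59 and 85 for Ccn2 and 7 and 12 for Ltbp1. With finer clusters the proximal class took in 774 and 814 spots of Uox_KO and 566 and 736 of Control, and the log2 fold changes there became -0.18 for Ccn2 and -0.28 for Ltbp1 (edgeR adjusted p 0.124 and 0.153).

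Whether the genotype difference itself differed between the 3 regions was tested in 1 edgeR fit with the mouse as a block. In this fit the distal region again held different clusters in the 2 genotypes. Of 14236 genes, 19.3% were called for such a difference, and so were 4 of the 10, Ltbp1 (adjusted p 6.2e-06), Ccn2 (adjusted p 7.2e-06), Tgfb1 (adjusted p 0.00315) and Thbs1 (adjusted p 0.0413). The log2 fold change in the glomerular region exceeded that in the distal region by 1.55 for Ltbp1 and by 0.73 for Ccn2. For Tgfb1 the proximal region gave the largest rise, with 56.2 and 53.2 CPM in Uox_KO and 6.04 and 6.05 CPM in Control (9.01-fold), against 28.5 and 27.7 CPM in Uox_KO and 8.28 and 7.23 CPM in Control in the distal region (3.62-fold). With finer clusters Tgfb1 was not called (adjusted p 0.248) and Tgfbr1 was (adjusted p 7.0e-04), and Ltbp1, Ccn2 and Thbs1 were called, but with other contrasts. The distal minus proximal difference of Ltbp1 was -1.08 and turned to 0.11 with finer clusters, while its glomerular minus distal difference was 1.55 and then 1.502. For Thbs1 the glomerular minus proximal difference moved to -0.089 with finer clusters, against -0.40, and the distal minus proximal one to 0.60, against 0.03. For Ccn2 the glomerular minus proximal difference was 1.59 with finer clusters, against 0.49, and the distal minus proximal one turned to 0.45, against -0.23.

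**Figure D5:**
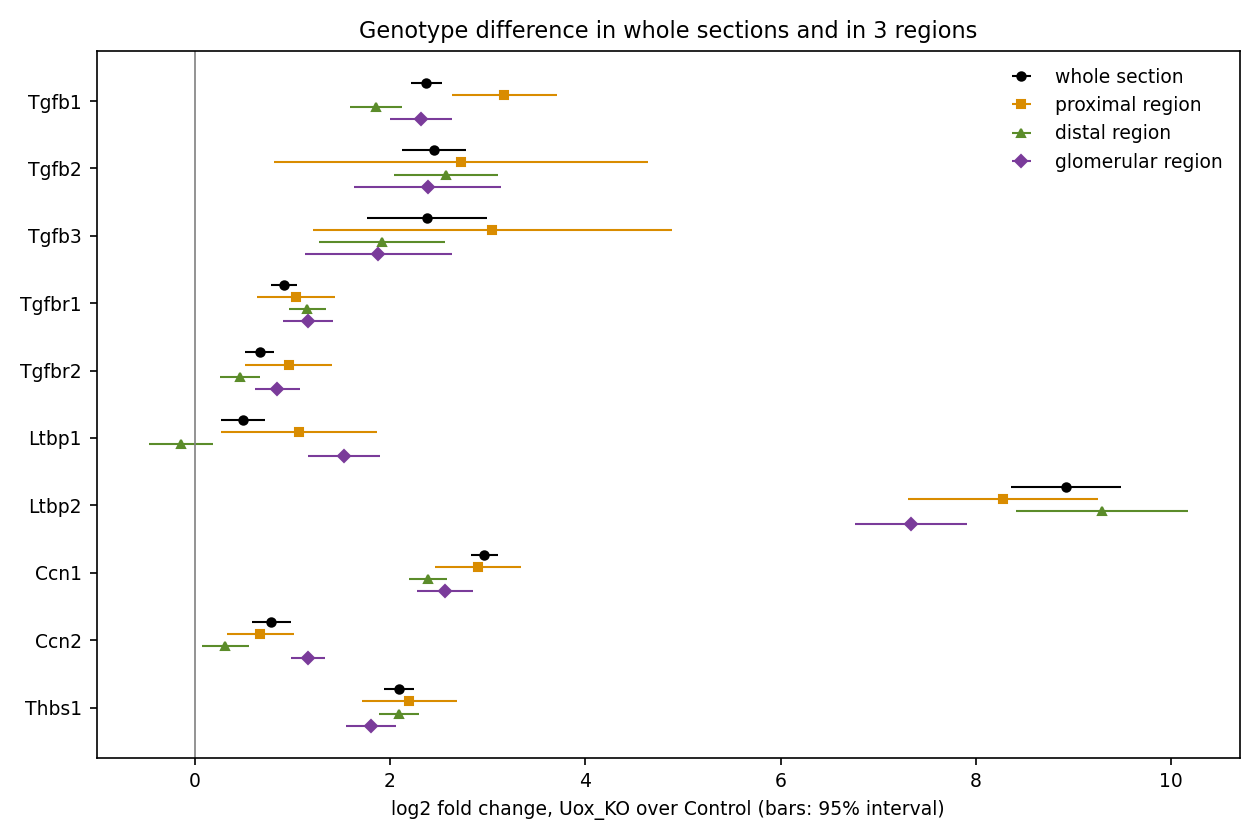
Log2 fold change of each gene, Uox_KO over Control, in whole sections and in 3 regions, with 95% intervals from the edgeR fits (n = 2 sections per genotype). Ltbp2 stands alone at the right in all 4 rows, Ltbp1 crosses 0 in the distal region at -0.14, and Ccn2 is larger in the glomerular than in the proximal and distal regions.

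Much of the transcript of these genes in Uox_KO lay in cluster 2, which no class claimed and whose leading genes include Cxcl10, Lyz2, Col1a1, C1qb and Ltbp2 itself. It held 754 and 593 spots in Uox_KO and 35 and 55 in Control, and 21.6% and 17.4% of all UMIs in Uox_KO. It held 54.9% and 56.2% of the Ltbp2 UMIs of Uox_KO, 52.6% and 45.3% of those of Ccn2, 45.0% and 41.1% of those of Ccn1, 51.5% and 39.5% of those of Ltbp1 and 37.1% and 31.8% of those of Tgfbr2. This cluster was tested by its number, outside the rule for regions, and was singled out after the data were seen. Single distal clusters were not tested. In cluster 2, 9 of the 10 genes were called higher in Uox_KO, where 24.0% of 13288 genes were called higher, 22.5% lower and 46.5% either way. Ccn1 had 175 and 188 CPM there in Uox_KO and 9.13 and 13.9 CPM in Control (edgeR adjusted p 7.0e-10). Ccn2 had 407 and 376 CPM there in Uox_KO and 157 and 162 CPM in Control, 2.44-fold higher (edgeR adjusted p 1.0e-07). Ltbp1 had 29.2 and 22.6 CPM in Uox_KO and 25.1 and 15.6 CPM in Control, which overlap (log2 fold change 0.39, edgeR adjusted p 0.241). Tgfb2 and Tgfb3 rest there on 1 UMI in each Control section, and Ltbp2 on 0 and 2 UMIs. Tgfb2, Tgfb3 and Ltbp2 passed the filter on low counts there only through Uox_KO, which fixed their direction.

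The rest of the pathway was read from lists that leave out the 10 genes, beside the 34.6% of all tested genes called higher and the 32.5% called lower. Over all genes the median was 0.00 (log2). Of 14 genes that release or activate latent TGF-beta, 11 were higher and 3, Furin, Itgb6 and Itgb8, lower in Uox_KO (median log2 fold change 1.11). The gelatinase gene Mmp2 had 30.1 and 28.7 CPM in Uox_KO and 2.85 and 3.07 CPM in Control, and Itgav, for the integrin αv chain, had 264 and 258 CPM in Uox_KO and 118 and 121 CPM in Control. Lrrc32 and Nrros, whose products hold latent TGF-beta at the cell surface, were 2.48-fold and 4.19-fold higher. Of 10 other latency binders and microfibril genes, 9 were higher and 1, the fibulin gene Fbln5, lower (median 2.37). Fbn2, for fibrillin-2, had 6.11 and 6.33 CPM in Uox_KO and 0.0823 and 0.0607 CPM in Control, Eln, for elastin, was 8.63-fold and Fbn1, for fibrillin-1, 6.25-fold higher. Mfap4, for another microfibril protein, was 28.1-fold higher.

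Counts for the other receptors were near those of all genes. Of 10 co-receptors and other receptors of the family, 3 were higher (Acvrl1, Acvr1 and Bmpr1a), 4 were lower (Acvr2a, Acvr2b, Acvr1b and Eng) and 3 were not called (Tgfbr3, Bmpr1b and Bmpr2), with a median log2 fold change of -0.058. Acvrl1, the type I receptor ALK1 of endothelium, had 29.5 and 31.1 CPM in Uox_KO and 12.0 and 12.7 CPM in Control, whereas its co-receptor Eng had 62.2 and 58.0 CPM in Uox_KO and 73.0 and 75.3 CPM in Control. The activin receptor genes Acvr2a and Acvr2b were 0.784-fold and 0.496-fold of Control. Of 16 SMADs and their regulators, 9 were higher and 2, Smad9 and Bambi, lower (median 0.32). Pmepa1, a target and inhibitor of the pathway, was 3.32-fold higher, Tgif1 2.28-fold, Skil 1.70-fold and Ski 1.57-fold, the last 3 being SMAD co-repressors.

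Target genes were mostly higher. Of 15 TGF-beta targets, 14 were higher in Uox_KO (median log2 fold change 2.61). The remaining one, the inhibitory Smad7, had 21.2 and 21.3 CPM in Uox_KO and 19.3 and 19.6 CPM in Control (edgeR adjusted p 0.089). The collagen genes Col1a1 and Col1a2 and the matricellular gene Postn were 37.6-fold, 12.6-fold and 34.1-fold higher. Of 13 targets of YAP and TEAD other than Ccn1, Ccn2 and Tgfb2, 12 were higher and Lats2 was not called (median 1.08). Ankrd1 had 14.4 and 11.1 CPM in Uox_KO and 0.412 and 0.384 CPM in Control, and Axl, a receptor kinase, was 4.79-fold higher. F3, for tissue factor, was 2.23-fold and Ajuba, a junction protein, 2.12-fold higher. Of 14 genes of the YAP pathway itself, 8 were higher and 1, Nf2, lower (median 0.22), with Tead1 2.15-fold and Tead2 3.41-fold higher.

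The relatives of the matricellular genes were also higher. All 7 other CCN and thrombospondin genes with enough counts were higher (median log2 fold change 2.60), and Ccn6 had too few counts to test. Thbs2 had 27.1 and 24.5 CPM in Uox_KO and 1.49 and 2.06 CPM in Control. Ccn4 was 6.07-fold, Thbs3 2.91-fold and Ccn5 19.4-fold higher. All 10 other matricellular genes were higher as well (median 3.85), among them Sparc at 7.55-fold, Fbln1 at 23.8-fold and Spp1, for osteopontin, at 13.9-fold. On the BMP and activin side 10 of 14 were higher and 2, Bmp7 and Nog, lower (median 1.68). Gdf15, a stress-induced member of the family, had 44.8 and 43.1 CPM in Uox_KO and 6.01 and 5.98 CPM in Control, and Fstl1 and Gdf11 were 5.11-fold and 4.51-fold higher. Genes named here only as lower or not called fall outside the rule for named genes and were picked out after their values were seen. These lists were drawn up with earlier results of these data known, and several of their genes are also stroma markers.

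For each gene the 3 genes of most like pattern were found over 24 sums, 6 clusters in each of 4 sections, as log2 CPM with each section's mean taken out. The sums share sections and depth, so the correlations are descriptions. Only clusters with at least 20 spots in every section entered, which left out cluster 0, with 41.4% and 46.5% of all UMIs in Uox_KO. Some sums of Tgfb2 and Tgfb3 hold 1 or 2 UMIs, so their values below are loose. Ltbp1 was most like Ppp1r12b (r = 0.92), C1s1 and Ogn, the last encoding the matrix proteoglycan osteoglycin. Ltbp2 was most like Cp (r = 0.85), Golm1 and Efhd2, so the latency binders had no nearest gene in common. Ccn2 was most like Tnfrsf1a (r = 0.95), Cald1 and Cnn2, the last 2 encoding actin-binding proteins. Ccn1 was most like Ptma (r = 0.86), Agrn and Myh9. Thbs1 was most like Pmepa1 (r = 0.88), Anxa5 and Tgfbr1, and Tgfbr1 in turn was most like Thbs1 (r = 0.87). Tgfb1 was most like Rbms3 (r = 0.91), Tgfb2 like Rasl11b (r = 0.90), Tgfb3 like S1pr3 (r = 0.87) and Tgfbr2 like Csf1r (r = 0.88), the receptor gene of macrophages.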

How the data were processed

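Visium libraries of 4 mouse kidney sections, 2 Uox_KO and 2 Control, were used. The authors deposited raw counts, UMIs for each gene in each spot. Per the submitters' processing notes the tool was Space Ranger 1.3.1 and the build mm10. Filters of the authors are not given in the sources used here. Genotype and replicate come from the labels.

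Counts were summed over the spots of a section. After filterByExpr and TMM scaling they entered the quasi-likelihood test of edgeR 4.0.16 in R 4.3.3, with genotype as the sole term, Benjamini-Hochberg adjustment over all genes and a threshold of 0.05. Section totals ran from 53897511 to 107962997 UMIs, so Uox_KO values rest on fewer molecules. For regions, 1 of 11130 spots had under 500 UMIs and was left out. The others were clustered with scanpy 1.11.5 and leidenalg 0.10.2 (resolution 0.5, 2000 variable genes, 30 components, 15 neighbours) without the 10 genes and the pathway lists. A cluster took a class with at least 3 markers among its 25 leading genes, and a tested region had at least 20 spots in every section. Cluster 2 took no class and was tested outside this rule. No doublet caller was run on spots. Intervals on shares of spots are exact Clopper-Pearson ones at 95% and cover counting error only. Ratios and shares of UMIs between genes are not corrected for length and were compared between genotypes only. Pairs of sections share 1861 to 2539 spot barcodes, which are positions of the same array design.

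The 10 genes, the pathway lists and the markers were chosen with earlier results of these data known. Named pathway genes are up to 4 of each list, those of smallest p in whole sections. A gene that this rule names is not reported here. The pipeline was tested on simulated data. Alternatives were DESeq2 1.42.0, total UMIs, no filter, each section left out, a replicate block, other sets of spots, thinning and finer clusters (resolution 1.0). Gene coordinates and promoters are from RefSeq on GRCm38.p6.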

Additional observations from a re-analysis of the deposited data

Results flagged for a closer look

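In 4 of the 10 genes the genotype difference itself differed between regions by the edgeR test of the region by genotype terms, with the mouse as a block and Benjamini-Hochberg adjustment. For Tgfb1 the log2 fold change of Uox_KO over Control was lower in the distal than in the proximal region, by -1.18 (adjusted p 0.00315). For Ltbp1 the same difference was -1.08 (adjusted p 6.2e-06). For Ccn2 the glomerular region exceeded the proximal by 0.49 (adjusted p 7.2e-06), and for Thbs1 the glomerular region minus the proximal gave -0.40 (adjusted p 0.0413). At resolution 1.0 the same differences were -0.0089 for Tgfb1 (adjusted p 0.248), 0.11 for Ltbp1, which turned in sign (adjusted p 1.9e-05), 1.59 for Ccn2 (adjusted p 9.5e-15) and -0.089 for Thbs1 (adjusted p 7.4e-06). These p-values are for both region terms together and not for the single difference. The distal region held different clusters in the 2 genotypes, and the part of that mix was not tested.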

How the results depend on the processing

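In whole sections the 10 genes kept their direction and their call under 13 alternatives each, except that Ltbp1 turned to -0.058 (log2) without fat, urothelium and cluster 2 spots, an alternative added after the data were seen. With total UMIs, 2926 genes were called lower. Leaving out each section in turn gave 4674 to 5427 genes higher and 4241 to 5060 lower, with 10 of the 10 genes called each time. Replicate numbers do not pair the sections (their differences correlate at 0.09), and the replicate block gave 5739 higher and 5377 lower genes, with all 10 called. In the proximal region, leaving out each section gave 5 to 8 of the 10 genes called, 5 without Uox_KO section 2, and 957 to 1360 genes higher and 855 to 1470 lower. There the Ltbp1 call was also lost under the block (adjusted p 0.0951), and Tgfb2 and Tgfb3 rest on 2 or 3 UMIs per Uox_KO section. At resolution 1.0 the proximal region gave 3642 genes higher and 3330 lower, with log2 fold changes of -0.28 for Ltbp1 and -0.18 for Ccn2, and 5403 genes differed by region. DESeq2 called 2212 genes higher and 2178 lower in the glomerular region and 2101 higher in cluster 2, where leaving out each section gave 1975 (without Control section 2) to 2708 higher. Without fat and urothelium spots the log2 ratio of Tgfbr2 to Tgfbr1 differed by -0.33. Unthinned spot shares differed by -3.52 for Tgfbr2, -1.76 for Ltbp1 and -7.40 for Ccn2. The cause of these changes was not tested. No injury class arose at resolution 0.5, so the region test without it was not run, and leaving out injury spots used the classes of resolution 1.0. Low counts limit Tgfb2, Tgfb3 and Control Ltbp2.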
